A study of Mus musculus with 18 samples.

Results

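The 10 genes described here encode the enzymes that build and remodel long-chain fatty acids: Acly, Acaca, Fasn, Scd1, Scd2, Fads1, Fads2, Elovl1, Elovl5 and Elovl6. They were taken as a fixed list of symbols, and all 10 were found among the 55414 genes of the count table. RNA came from C2C12 cells, a mouse myoblast line whose cells fuse to multinucleate myotubes when serum is lowered. They were grown for 6 days in differentiation medium after transfection with pools of siRNAs. For the next 16 h they were held in medium with bovine serum albumin (BSA) or with BSA carrying 0.5 mM palmitic acid (PA). By the study's methods the medium with PA was free of serum, and control cells received the BSA vehicle. The 6 groups, with 3 libraries each and 18 in all, combine a non-targeting siRNA (siNtc), siRNA against Erk3 (siErk3, gene Mapk6) or siRNA against Mk5 (siMk5, gene Mapkapk5) with BSA or PA. Every group was transfected, so no library comes from untouched cells, and all come from 1 cell line, which forms mainly fast-type myotubes and cannot stand in for muscle fibers of an animal. Whether the libraries of a group were separate cultures is not stated, so the p-values measure the spread between these libraries, which may be technical.

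Long-chain fatty acids are made in the cytosol from citrate that leaves the mitochondria. Acly cleaves citrate to acetyl-CoA, Acaca turns acetyl-CoA into malonyl-CoA, and Fasn joins these units into palmitate, the same saturated fatty acid that was added in PA. Elovl6 lengthens palmitate to stearate, Scd1 and Scd2 put the first double bond into saturated acyl-CoAs, Fads1 and Fads2 desaturate polyunsaturated fatty acids, Elovl5 elongates these, and Elovl1 extends acyl chains to very long lengths. Many of these genes are known targets of the transcription factor Srebf1 (SREBP-1), which is held in the endoplasmic reticulum by Insig proteins and escorted to the Golgi by Scap, and whose processing polyunsaturated fatty acids restrain.

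Total counts, the read pairs assigned to genes, ran from 13041979 in siNtc BSA replicate 1 to 28496727, and the 18S rRNA gene Rn18s-rs5 took 1.5% to 12.9% of them. Each of the 10 genes had between 778 and 56833 counts in every library. Mapk6 was 129 to 135 CPM (counts relative to the TMM-scaled library total) in siNtc BSA and 55.2 to 60.4 CPM in siErk3 BSA, and 215 to 244 CPM in siNtc PA against 109 to 131 CPM in siErk3 PA. Mapkapk5 stood at only 1.18 to 2.01 CPM in siMk5 BSA and 2.32 to 2.54 CPM in siNtc BSA, a log2 difference of -0.61 ± 0.21 (SE) that did not pass the test (FDR = 0.469). With PA it stood at 2.17 to 2.43 CPM in siMk5 and 2.52 to 3.92 CPM in siNtc, which did not pass either (-0.485 ± 0.18, FDR = 0.469). The study reports efficient silencing of both kinases by Western blot. It also reports less Erk3 protein after Mk5 silencing, and a non-significant trend to less Mk5 protein after Erk3 silencing. The 2 silencings are thus not fully separate at the protein level. Mapk6 RNA in siMk5 differed from siNtc by 0.04 ± 0.06 in BSA and -0.03 ± 0.05 in PA on the log2 scale. The 6 myotube markers summed to between 8441 and 10930 CPM in every library, the 5 adipocyte markers to at most 0.140 CPM (Plin1 and Cidec had 0 counts), and the 4 macrophage markers to at most 2.33 CPM (Adgre1 had 0 counts). The 4 markers of proliferating myoblasts summed to 743 to 811 CPM in the BSA libraries and to 292 to 395 CPM in the PA libraries, and the 3 fibroblast markers to 1405 to 1766 CPM and 440 to 777 CPM. Both sums moved with PA. The myotube sum was lower with PA in siNtc (8441 to 8597 CPM against 8877 to 9533 CPM) and siErk3 (9197 to 9812 CPM against 9898 to 10930 CPM). In siMk5 it overlapped (8654 to 9157 CPM against 8779 to 9581 CPM). Of its markers, Myog was called lower with PA in all 3 siRNA groups (log2 fold changes -0.59, -0.48 and -0.44). Des alone went the other way (0.11, 0.14 and 0.16). The part of all these markers in the PA differences below was not tested. In bulk RNA, fewer cells of a type and less RNA per cell cannot be told apart.

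The genes lie on 5 chromosomes of GRCm39. Acly (chr11:100367179-100418826), Acaca (chr11:84020498-84292477) and Fasn (chr11:120696672-120715373) share chromosome 11. Scd2 (chr19:44282113-44295303) and Scd1 (chr19:44382894-44396318) lie close together on opposite strands of chromosome 19, as do Fads2 (chr19:10040129-10079110) and Fads1 (chr19:10160252-10174241) elsewhere on it. Elovl1 (chr4:118285290-118290150), Elovl5 (chr9:77824646-77891801) and Elovl6 (chr3:129326004-129432144) each lie alone. Counts of near-identical sequence are less certain, since read pairs fitting 2 places could be counted. Scd1 shared 3.06% and Scd2 2.67% of the 50-base words of their transcripts with other genes, mostly with each other and with Scd3, which had 15 counts over all 18 libraries. Acaca shared 28.2% of its words, nearly all with Gm5182, which had 66 to 141 counts per library where Acaca had 1789 to 4293.

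The RefSeq promoter table (built on GRCm38.p6) holds windows for 7 of the 10 genes: Acaca, Acly, Elovl1, Elovl5, Elovl6, Fads2 and Fasn. The 250 bases before the start are shown for Acly, whose level was higher with PA in all 3 siRNA groups, and for Fasn, whose level was not. Both sequences matched GRCm39 exactly once, on the minus strand, at chr11:100418827-100419076 and chr11:120715374-120715623, directly before the annotated start of each gene. Capitals mark GC boxes (GGGCGG) and CCAAT boxes (CCAAT) on either strand.
Acly: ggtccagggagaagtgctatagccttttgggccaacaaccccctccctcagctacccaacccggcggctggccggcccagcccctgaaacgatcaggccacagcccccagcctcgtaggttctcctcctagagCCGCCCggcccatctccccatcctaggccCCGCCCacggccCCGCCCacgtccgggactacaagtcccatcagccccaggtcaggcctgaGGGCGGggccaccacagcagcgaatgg
Fasn: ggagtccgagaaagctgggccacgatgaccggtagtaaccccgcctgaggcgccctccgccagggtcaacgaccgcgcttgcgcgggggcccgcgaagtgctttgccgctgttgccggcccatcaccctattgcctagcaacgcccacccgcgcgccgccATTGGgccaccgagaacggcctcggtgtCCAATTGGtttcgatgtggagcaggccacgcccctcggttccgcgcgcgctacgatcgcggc
The Acly window held 4 GC boxes and 0 CCAAT boxes. That of Fasn held 0 GC boxes and 3 CCAAT boxes, of which a pair overlaps. Over the 8 windows of the 7 genes, 4 held a GC box and 3 a CCAAT box. Elovl1, also higher with PA in all 3 siRNA groups, had windows with 5 and 2 GC boxes, and with 1 and 0 CCAAT boxes. Those of Elovl6 and Acaca held 0 of both. Whether the boxes go with the PA response was not tested. Of all 32817 windows of this length, 32.7% held a GC box and 33.8% a CCAAT box. The sterol regulatory element TCACNCCAC, searched on both strands and present in 1.05% of all windows, was in 0 of the 8 windows of the 7 genes, which says only that these letters are not in these 250 bases. The E-box CACGTG was in 1 of them, that of Elovl5, against 6.02% of all windows. Not every window is upstream sequence of its gene. That of Acaca belongs to a start 65766 bases inside the annotated gene. By the GENCODE annotation that gave the symbols, the windows of Elovl1, Elovl6 and Fads2 lie in exons over all 250 bases. That of Elovl5 does over 179 bases and that of Fasn over 29.

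The level of each gene differed widely between genes and little between groups. Per kilobase of exon, Scd2 led with a mean of 312 CPM per kb over the 18 libraries, followed by Scd1 with 111, Fads2 with 46.2, Acly with 45.7, Fasn with 41.7, Fads1 with 27.7, Elovl1 with 25.8, Elovl5 with 17.6, Elovl6 with 8.69 and Acaca with 7.67 CPM per kb. This order depends on the summed length of all annotated exons, 17074 bases for Acaca and 6431 for Elovl6. Without that division, the median over the libraries was 128.5 CPM for Acaca and 55.2 CPM for Elovl6. Between the highest and the lowest of the 6 group means of a gene, the ratio ran from 1.15 for Elovl5 to 1.38 for Fads1. When the groups were ordered by their mean, most neighbors in that order overlapped: all 5 pairs for Acaca, Fasn, Scd1 and Fads2, 4 of 5 for Acly, Scd2, Fads1, Elovl5 and Elovl6, and 2 of 5 for Elovl1. The plot of the levels by library shows these steps.

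**Figure D1:**
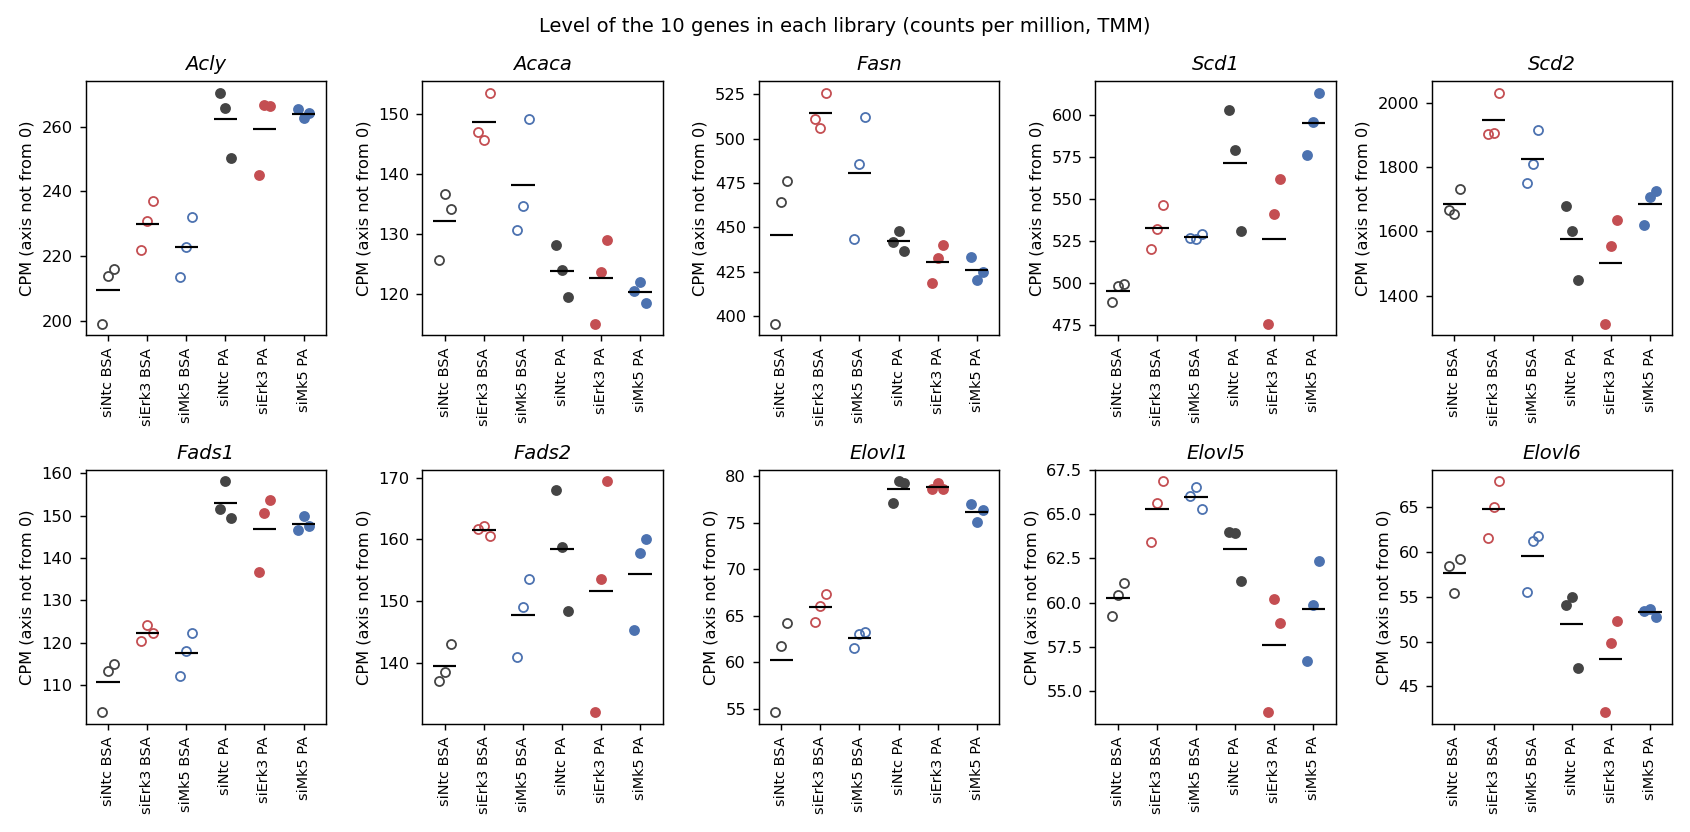
Level of each of the 10 genes in CPM (y axis, scaled by TMM, not starting at 0) in the 18 libraries, by group (x axis). Open circles are BSA and filled circles PA libraries, bars are group means of 3 libraries. Acly, Fads1 and Elovl1 stand higher in every PA library than in every BSA library, and the share of all genes that do so is not given. Scd2 and Elovl6 stand highest in siErk3 BSA and lowest in siErk3 PA.

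The first question was how the added palmitate changed these genes in myotubes with non-targeting siRNA. Of the 10 genes only Fads1, the delta-5 desaturase, changed, and it rose by 1.38-fold. A gene was called changed at an FDR below 0.05 (Benjamini-Hochberg over the 21772 genes tested, edgeR) and a fold change above 1.3, criteria that 30.6% of all genes tested met in this comparison. At the FDR alone, 5 of the 10 genes were higher and 0 lower, against 45.1% of all genes in either direction. The lower count ran from 0 to 3 under the alternatives, and the higher count from 4 to 5. Without siNtc BSA replicate 1, 4 were higher and 1 lower, since Acaca came to -0.15 (FDR = 0.0253) and Fads2 to 0.15 (FDR = 0.0782). Without siErk3 PA replicate 1, whose values enter the shared estimate of spread and scaling, 5 were higher and 3 lower (Acaca, Scd2 and Elovl6). The median log2 fold change was 0.12 for the 10 genes and -0.03 for all genes tested, and the median size without sign was 0.16 and 0.46.

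Fads1 was at 104, 113 and 115 CPM in siNtc BSA and at 152, 158 and 149 CPM in siNtc PA. The groups were apart, with a log2 fold change of 0.46 ± 0.05 (SE, n = 3 per group, FDR = 2.38e-09). Elovl1 stood at 54.7, 61.8 and 64.3 CPM in BSA and 77.1, 79.4 and 79.3 CPM in PA, again apart. Its log2 fold change of 0.38 ± 0.05 (FDR = 1.34e-07) lay just below the fold limit of 1.3. Acly, which supplies acetyl-CoA, was at 199, 214 and 216 CPM in BSA and 271, 266 and 250 CPM in PA, a log2 difference of 0.32 ± 0.05 (FDR = 8.24e-07) with no overlap.

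The desaturases Scd1 and Fads2 moved less. Scd1 was at 489, 498 and 500 CPM in siNtc BSA and at 603, 579 and 531 CPM in siNtc PA (log2 difference 0.21 ± 0.05, FDR = 0.00114). Fads2 was at 137, 139 and 143 CPM and at 168, 159 and 148 CPM (0.18 ± 0.06, FDR = 0.0157). Both genes were higher in every PA library but stayed under the fold limit. For the other 5 genes, the log2 difference ran from -0.15 for Elovl6 to 0.07 for Elovl5, and none reached an FDR below 0.05. The 95% interval for Fasn, -0.12 to 0.10, and for Acaca, -0.20 to 0.01, leave room for small changes only. Scd2 was at 1667, 1653 and 1734 CPM in BSA and 1678, 1600 and 1449 CPM in PA, overlapping groups with an interval of -0.22 to 0.02.

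The same comparison was made in siErk3. Only Elovl6, which turns palmitate into stearate, changed, and it fell by 0.43 ± 0.07 on the log2 scale (FDR = 1.43e-06), where 32.1% of all genes tested met the criteria. Its levels were 61.6, 65.0 and 67.9 CPM in siErk3 BSA and 42.1, 49.8 and 52.3 CPM in siErk3 PA, without overlap. At the FDR alone, 3 genes were higher with PA (Fads1, Elovl1 and Acly) and 5 lower (Elovl6, Scd2, Acaca, Fasn and Elovl5), against 47.1% of all genes. The 18S rRNA share was 3.74% to 6.77% in siErk3 PA and 1.5% to 2.96% in siErk3 BSA, and with it as a covariate these counts were again 3 and 5. The median log2 fold change of the 10 genes was -0.14 and that of all genes -0.01.

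Scd2 was at 1904, 1908 and 2033 CPM in siErk3 BSA and at 1313, 1554 and 1637 CPM in siErk3 PA. The log2 difference of -0.38 ± 0.06 (FDR = 2.84e-06) was just inside the fold limit, so Scd2 was not called. Acaca, which makes malonyl-CoA, was at 147, 146 and 154 CPM and at 115, 124 and 129 CPM (-0.28 ± 0.05, FDR = 2.29e-05). Fasn was at 511, 506 and 526 CPM and at 419, 433 and 440 CPM (-0.26 ± 0.05, FDR = 0.000148). None of these 3 pairs of groups overlapped, and the share of all genes without overlap is not given here. In the other direction, the log2 differences were 0.26 ± 0.05 for Fads1, 0.26 ± 0.05 for Elovl1 and 0.17 ± 0.05 for Acly, while those of Scd1 (-0.02, interval -0.12 to 0.09) and Fads2 (-0.09, interval -0.22 to 0.03) did not pass. Library siErk3 PA replicate 1 was the lowest of its group for 9 of the 10 genes, all but Elovl1. Without it, Elovl6 stood at -0.37 (FDR = 5.89e-06), inside the fold limit, so that 0 of the 10 genes were called, and Scd2 at -0.31 (FDR = 1.06e-05).

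In siMk5, 0 of the 10 genes changed by edgeR with both criteria and 0 by DESeq2, against 29.7% of all genes tested, and 8 had an unadjusted p below 0.05, against 49.1% of all genes. At the FDR alone, 4 were higher with PA (Fads1, Elovl1, Acly and Scd1) and 3 lower (Acaca, Fasn and Elovl5), against 44.3% of all genes. The 18S rRNA share separated these groups, at 8.39% to 12.9% in siMk5 BSA and 1.71% to 6.69% in siMk5 PA. With it as a covariate 4 were higher and 1 lower (Acaca, -0.19, FDR = 0.0359), while Fasn stood at -0.10 (FDR = 0.300) and Elovl5 at -0.12 (FDR = 0.204). Over all alternatives run, the lower count ran from 1 to 5 and the higher count was 4. Fads1 was at 112, 118 and 122 CPM in siMk5 BSA and 147, 150 and 148 CPM in siMk5 PA, a log2 difference of 0.34 ± 0.05 (FDR = 9.83e-07). The groups were apart, and the difference was 1.26-fold. Elovl1 differed by 0.28 ± 0.05, Acly by 0.25 ± 0.05 and Scd1 by 0.17 ± 0.05, and Acaca by -0.20 ± 0.05, Fasn by -0.17 ± 0.05 and Elovl5 by -0.15 ± 0.05. Elovl6 (-0.16, interval -0.29 to -0.02) and Scd2 (-0.12, interval -0.24 to 0.00) missed the FDR limit.

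**Figure D2:**
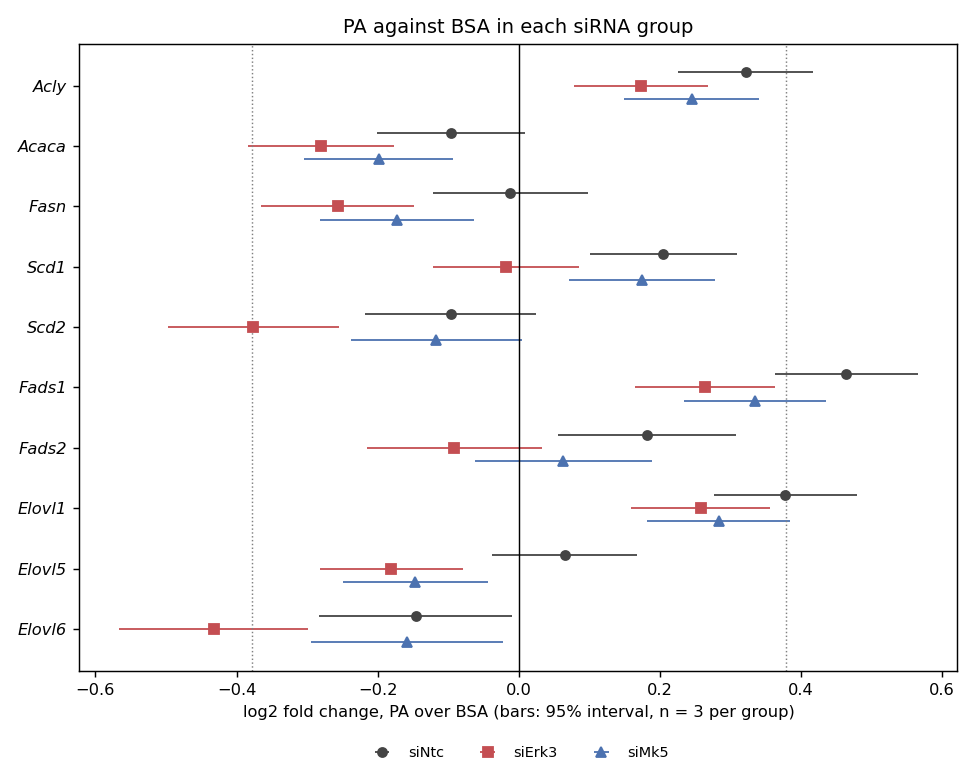
Log2 fold change of PA over BSA (x axis) for the 10 genes (y axis) in siNtc, siErk3 and siMk5, with 95% intervals (bars) from 3 libraries per group. Dotted lines mark a 1.3-fold change. Fads1, Elovl1 and Acly lie to the right of 0 in all 3 siRNA groups, and Elovl6 in siErk3, at -0.43, lies farthest to the left.

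The PA comparisons of the 3 siRNA groups share no libraries, so a direction can be read across them. Fads1, Elovl1 and Acly were higher with PA at an FDR below 0.05 in all 3, as were 19.7% of all genes tested, and the same 3 genes were so under every alternative run. Lower in all 3 were 0 of the 10 genes, against 16.3% of all genes, and 0 passed the FDR in opposite directions, against 0.0919%. The count of 0 lower genes rests on single libraries and settings. It was 1 without siNtc BSA replicate 1 (Acaca), 1 without siNtc BSA replicate 2, siNtc PA replicate 2 or siErk3 PA replicate 3 (Elovl6) and 3 without siErk3 PA replicate 1 (Acaca, Scd2 and Elovl6), and with other filters, other size factors or only the libraries compared it was 1 to 2. The log2 differences of Acaca, Fasn, Scd2 and Elovl6 were below 0 in all 3 siRNA groups, and those of Elovl5 in siErk3 and siMk5. Scd1 (0.21, -0.02 and 0.17) and Fads2 (0.18, -0.09 and 0.06) had both signs. Over the 18 libraries the log2 CPM of Acly and Fads1 had a Pearson r of 0.98, that of Scd2 and Elovl6 0.95 and that of Acaca and Fasn 0.91. The lowest r, -0.65, was that of Elovl1 and Elovl6. These correlations describe libraries that share their treatment, depth and scaling.

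Scd1 and Scd2 catalyze the same reaction, and their balance was compared within each library, which removes depth and scaling. In siNtc there were 0.293, 0.301 and 0.288 Scd1 counts per Scd2 count in BSA and 0.360, 0.362 and 0.367 in PA. In siErk3 the ratio was 0.273, 0.279 and 0.269 in BSA and 0.362, 0.348 and 0.343 in PA. In siMk5 it was 0.301, 0.291 and 0.276 in BSA and 0.356, 0.349 and 0.355 in PA. Every PA library thus lay above every BSA library, 0.343 to 0.367 against 0.269 to 0.301. The log2 ratio was higher with PA by 0.30 in siNtc, 0.36 in siErk3 and 0.29 in siMk5, and by 0.32 on average. A two-sided exact permutation test of PA against BSA within siRNA groups gave p = 0.00025, the smallest that its 8000 assignments allow. Within a siRNA group the exact permutation test of 3 against 3 libraries cannot go below p = 0.1, and each of the 3 groups gave that value. The ratio shows unequal change of the pair, and it was Scd1 in siNtc and siMk5 and Scd2 in siErk3 that differed at an FDR below 0.05.

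**Figure D3:**
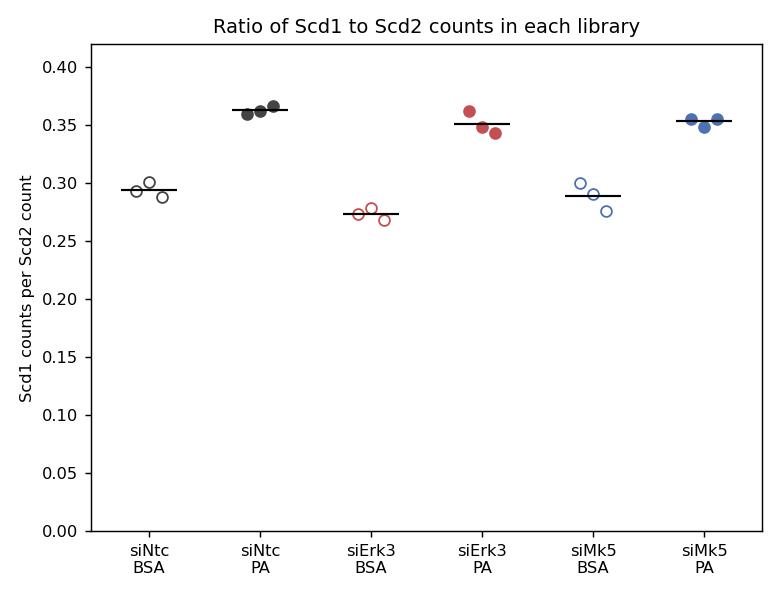
Scd1 counts per Scd2 count (y axis, from 0) in each library of the 6 groups (x axis). Open circles are BSA and filled circles PA libraries, bars are means of 3 libraries. The 9 PA libraries lie between 0.343 and 0.367, above the 9 BSA libraries at 0.269 to 0.301.

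The second question was whether silencing Erk3 alters these genes. In BSA, 0 of the 10 changed by edgeR with both criteria and 0 by DESeq2, where 0.785% of all genes tested did. At the FDR alone 1 passed, Fasn, against 1.21% of all genes. All 10 were higher in siErk3 than in siNtc, by 0.10 to 0.21 on the log2 scale (median 0.16, against 0.02 for all genes). Of all 21772 genes tested, 11951 were higher. An unadjusted p below 0.05 was reached by 10 of 10, where 7.14% of all genes were higher at that p. In siMk5 BSA, compared with the same siNtc BSA libraries, all 10 were higher as well, as were 11733 of all genes. There the 10 differed by 0.05 to 0.13 (median 0.08, against 0.01 for all genes). The 10 genes were measured in the same 6 libraries of a comparison and vary together, so a count of 10 of 10 is not 10 separate observations.

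Fasn was at 396, 464 and 476 CPM in siNtc BSA and at 511, 506 and 526 CPM in siErk3 BSA, a log2 difference of 0.21 ± 0.05 (FDR = 0.0485). Fads2 was at 137, 139 and 143 CPM against 162, 162 and 160.5 CPM (0.21 ± 0.06, FDR = 0.111). Scd2 was at 1667, 1653 and 1734 CPM against 1904, 1908 and 2033 CPM (0.21 ± 0.06, FDR = 0.0887). For these 3 genes every siErk3 library lay above every siNtc library, and the share of all genes that did so is not given here. Library siNtc BSA replicate 1, the shallowest of the series, was the lowest of its group for 8 of the 10 genes, all but Scd2 and Elovl6, and also for Srebf1 (108 CPM against 129 and 124). Without it, all 10 differences stayed above 0, 5 had an unadjusted p below 0.05, and Fasn stood at 0.13 (FDR = 0.352). Markers moved with this comparison too. The myotube sum was 9898 to 10930 CPM in siErk3 BSA and 8877 to 9533 CPM in siNtc BSA. Within it Myh3 was called (0.39 ± 0.05, FDR = 1.44e-05), and Acta1 stood at 0.14, Ckm at 0.05 and Des at 0.02. Myog (-0.05) and Tnnt3 (-0.15) were below 0. The fibroblast sum was 1724 to 1766 CPM against 1447 to 1669 CPM. Of its markers, Col1a1 was at 0.18, while Dcn (-0.23) and Pdgfra (-0.14) were below 0. The myoblast sum was 772 to 811 CPM against 743 to 768 CPM. The part of these markers in the higher values of the 10 genes was not tested. The share of 18S rRNA also moved with this comparison, at 1.5% to 2.96% in siErk3 BSA and 2.56% to 7.17% in siNtc BSA. With the log2 of that share as a covariate, 9 of the 10 kept an unadjusted p below 0.05, and the difference of Fasn was 0.27 (FDR = 0.0399).

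With PA, the same silencing gave 0 changed genes of 10 by edgeR and by DESeq2 (0.556% of all genes tested), and 2 with an unadjusted p below 0.05, Elovl5 and Scd1, against 8.28% of all genes. Elovl5 was at 64.0, 63.9 and 61.2 CPM in siNtc PA and at 53.8, 60.2 and 58.9 CPM in siErk3 PA, apart from each other, with a log2 difference of -0.13 ± 0.05 (FDR = 0.400). Scd1 differed by -0.12 ± 0.05 (FDR = 0.498), and its groups overlapped. The other 8 genes ran from -0.12 for Elovl6 to 0.00 for Elovl1.

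The difference between the silencing effect in PA and in BSA was tested as an interaction, which uses the same libraries as the comparisons above. It was below 0 for all 10 genes, from -0.29 ± 0.09 for Elovl6 to -0.12 ± 0.07 for Elovl1, with a median of -0.23 against -0.03 for all genes. Of all 21772 genes tested, 12165 were below 0. The interaction of siMk5, which shares the siNtc libraries, was below 0 for all 10 genes too (median -0.10, against -0.02 for all genes). There 11739 of all genes were below 0. In the interaction of siErk3, 0 of 10 passed the FDR by edgeR (lowest 0.407, Elovl5) and 0 by DESeq2. By edgeR, 0.041% of all genes tested passed the FDR alone and 0.0367% met both criteria. Without adjustment, 9 of the 10 had a p below 0.05, all but Elovl1, where 4.18% of all genes were lower at that p. The values for Scd2, -0.28 ± 0.08, for Fads2, -0.27 ± 0.09, and for Elovl5 and Fasn, -0.25 ± 0.07 and -0.24 ± 0.08, were similar in size. Without siNtc BSA replicate 1 the count was 7, and without siErk3 PA replicate 1 it was also 7. With the 18S share as a covariate it was 10. By group, the mean log2 CPM of the 10 genes was 7.48 in siNtc BSA, 7.64 in siErk3 BSA and 7.57 in siMk5 BSA, and 7.61, 7.55 and 7.60 with PA. Its lowest library with PA, siErk3 replicate 1, was at 7.43, and its lowest with BSA, siNtc replicate 1, at 7.42.

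Silencing of Mk5 was compared in the same way. In BSA 0 of 10 changed by edgeR and by DESeq2, where 0.0643% of all genes did, and 1, Elovl5, had an unadjusted p below 0.05, against 6.89% of all genes. Elovl5 was at 59.2, 60.4 and 61.1 CPM in siNtc BSA and 66.0, 66.5 and 65.3 CPM in siMk5 BSA, without overlap, a log2 difference of 0.13 ± 0.05 (FDR = 0.612). With PA, 0 of 10 changed by either tool (0.547% of all genes), and 0 had an unadjusted p below 0.05, against 6.79% of all genes. The widest of the 95% intervals there, that of Elovl6, ran from -0.10 to 0.17. In the interaction with PA, 0 changed by either tool (0.211% of all genes), and 2 had an unadjusted p below 0.05, against 7.43% of all genes. These were Elovl5 with -0.21 ± 0.07 (FDR = 0.399) and Fasn with -0.16 ± 0.08 (FDR = 0.665). The interval of Scd2 was -0.19 to 0.15 and that of Scd1 -0.18 to 0.12. The siErk3 value of Scd2, -0.28, lay outside the siMk5 interval, but its own interval of -0.45 to -0.11 overlapped it. Without siErk3 PA replicate 1 the siErk3 value of Scd2 was -0.19. Whether the effects or interactions of siErk3 and siMk5 differ from each other was not tested.

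**Figure D4:**
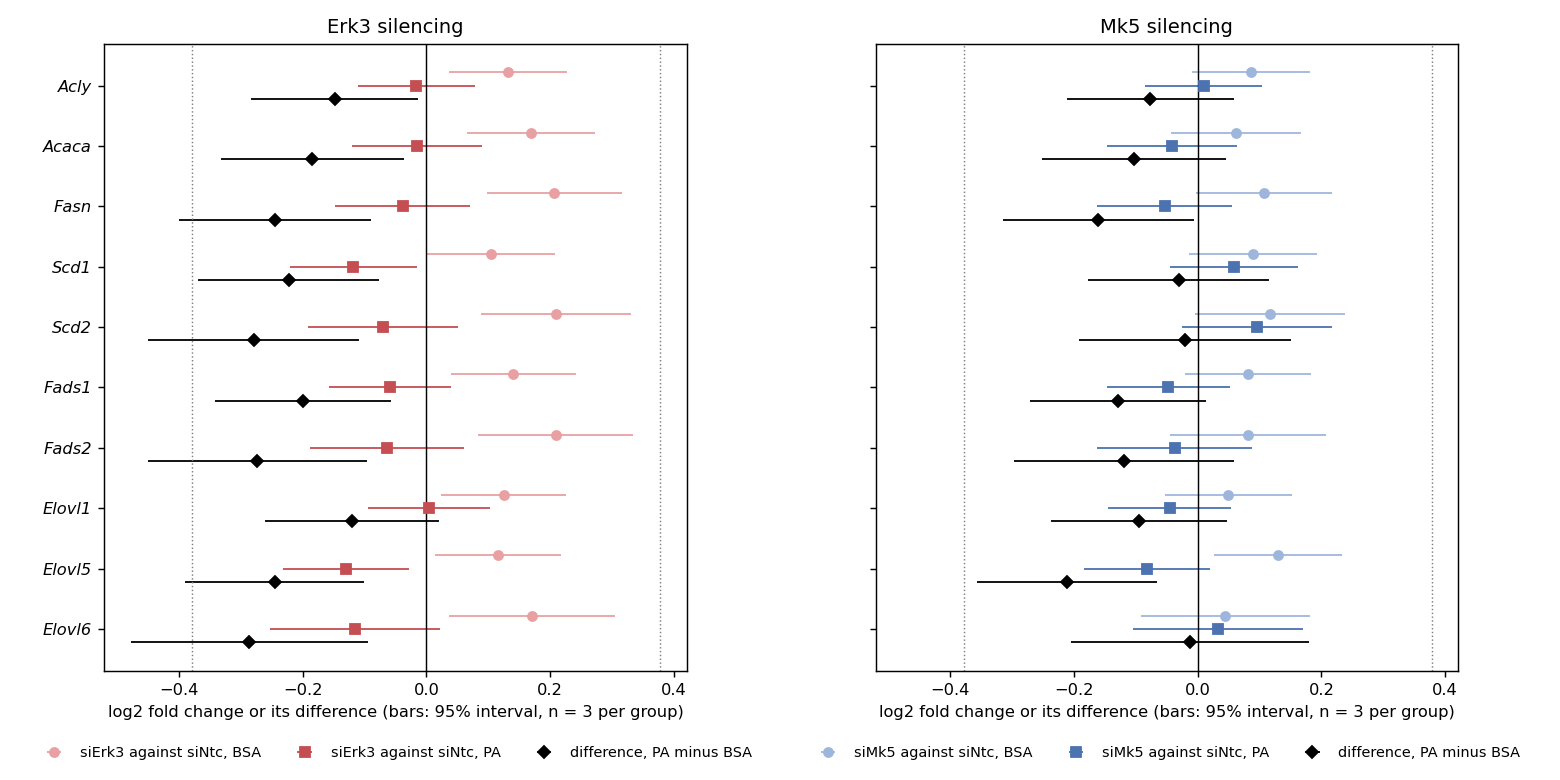
Log2 fold change of siErk3 (left) and siMk5 (right) over siNtc in BSA and in PA, and the difference between them (x axis), for the 10 genes (y axis), with 95% intervals (bars) from 3 libraries per group. Dotted lines mark a 1.3-fold change. In BSA all siErk3 points lie between 0.10 and 0.21, in PA between -0.13 and 0.00, and no point reaches the 1.3-fold lines.

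Other genes of the pathway were followed as a list of 40, covering regulators, precursor supply, paralogs of the 10 genes, the other enzymes of the elongation cycle and mitochondrial fatty acid synthesis. Elovl2, Mlxipl and Thrsp had 0, 6 and 2 counts in all and were not tested, which left 37. With PA, 7 rose and 5 fell in siNtc, 7 rose and 6 fell in siErk3, and 8 rose and 8 fell in siMk5. These were 32.4%, 35.1% and 43.2% of the list, beside the shares of all genes given above. Those shares include genes with as few as 10 counts in total. Of the 15040 genes kept by the stricter filter filterByExpr, 3055 rose and 3300 fell in siNtc. There 3177 rose and 3413 fell in siErk3, and 3043 rose and 3108 fell in siMk5. These are larger shares, so the list is not read as an excess. The median log2 fold changes, 0.00, -0.01 and -0.07, were near 0. The same direction was called in all 3 siRNA groups for 7 genes that rose and 5 that fell. These were 18.9% and 13.5% of the list, against 12% and 10.8% of all genes tested, again with the sparse genes included.

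Insig1, which retains the SREBP and Scap complex in the endoplasmic reticulum, rose most among the regulators. It was at 80.2, 84.6 and 83.2 CPM in siNtc BSA and 217, 224 and 206 CPM in siNtc PA, and its log2 fold change was 1.38 ± 0.05 in siNtc, 1.10 ± 0.05 in siErk3 and 1.36 ± 0.05 in siMk5. Mid1ip1, which promotes polymerization of the Acaca protein, rose by 0.89, 0.78 and 0.86, and Mlx, the partner of carbohydrate response factors, by 0.51, 0.55 and 0.46. Srebf1 was at 108, 129 and 124 CPM in siNtc BSA and at 103, 101 and 90.4 CPM in siNtc PA. It fell by 0.51 ± 0.07 in siErk3 and by 0.47 ± 0.07 in siMk5, and was at -0.30 ± 0.07 (FDR = 0.000591) in siNtc, inside the fold limit. Srebf2 stood at -0.11, -0.26 and -0.22, called in none of the 3. Of the proteases that release the SREBPs in the Golgi, Mbtps1 was at -0.28, -0.32 and -0.42 and Mbtps2 at 0.34, 0.34 and 0.43 in siNtc, siErk3 and siMk5. Both passed the FDR in all 3 groups and the fold limit in siMk5 alone. Nr1h3, the liver X receptor alpha, was low at 2.10 ± 0.13 CPM (SD, n = 3) in siNtc BSA, and its log2 differences of 0.16, 0.36 and 0.37 did not pass (lowest FDR 0.172).

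Enzymes of the elongation cycle moved apart from each other. Hsd17b12, the ketoacyl-CoA reductase of the cycle, was at 77.8, 75.3 and 74.8 CPM in siNtc BSA and at 144, 154 and 158 CPM in siNtc PA, and rose by 1.00 ± 0.05 there, by 1.04 in siErk3 and by 0.97 in siMk5. Hacd4, a hydroxyacyl-CoA dehydratase, was at 47.2, 44.6 and 45.1 CPM in siNtc BSA and 17.9, 14.1 and 9.65 CPM in siNtc PA, and its log2 fold changes were -1.70 ± 0.13, -2.14 ± 0.13 and -1.93 ± 0.13. Its relatives Hacd1, Hacd2 and Hacd3 and the enoyl reductase Tecr were not called in any of the 3. Among the paralogs, Fads3, a relative of Fads1 and Fads2 in sequence, rose by 0.65, 0.61 and 0.60 from 218 ± 21 CPM (SD, n = 3) in siNtc BSA. Elovl4 rose by 0.78, 0.90 and 0.68 from 4.87 ± 0.55 CPM. Fads6, at 8.03 ± 0.91 CPM, fell (log2 fold changes -1.74, -2.30 and -1.98), as did Elovl7, at 2.16 ± 0.03 CPM (-0.73, -1.42 and -0.60). Of the mitochondrial enzymes, Mecr rose by 0.48, 0.51 and 0.51 and Cbr4 fell (-0.66, -0.40 and -0.39). Acacb, the mitochondrial-membrane relative of Acaca, was low at 2.07 ± 0.59 CPM and fell (-0.56, -0.74 and -0.95, FDR from 0.00146 to 0.0475).

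**Figure D5:**
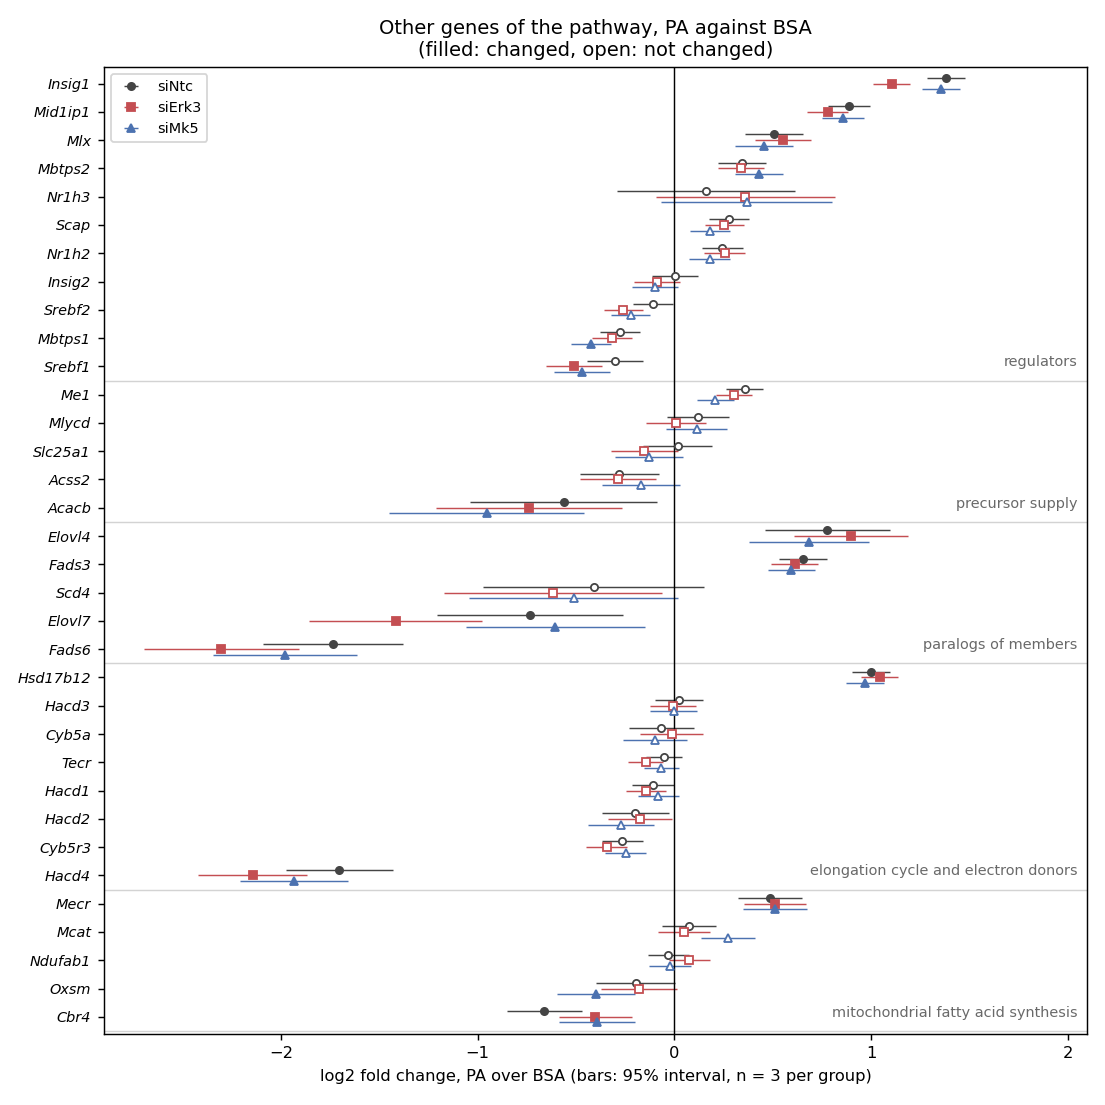
Log2 fold change of PA over BSA (x axis) for 34 other genes of the pathway (y axis, grouped by role) in siNtc, siErk3 and siMk5, with 95% intervals (bars). Filled symbols mark genes called changed. Scd3, Elovl3 and Hsd17b8, which are close to 0 counts, are left out. Insig1 and Hsd17b12 lie at about 1 or above in all 3 siRNA groups, and Hacd4 and Fads6 at -1.70 or lower.

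In the silencing comparisons 0 of the 37 changed by edgeR, beside the shares of all genes given above for each. For siErk3 in BSA 4 had an unadjusted p below 0.05, or 10.8% of the list against 10.6% of all genes, and in PA 6, or 16.2% against 8.28%. For siMk5 it was 2 in BSA and 2 in PA, or 5.41% against 6.89% and 6.79%. For the interaction of siErk3 it was 6, or 16.2% against 6.1%, and for that of siMk5 3, or 8.11% against 7.43%. By DESeq2 the count was 0 in all of these except siErk3 in PA, where it was 1, Fads6. Insig1 and Srebf1 were among those with an unadjusted p below 0.05 in siErk3 BSA, at 0.15 ± 0.05 (FDR = 0.163) and 0.21 ± 0.07 (FDR = 0.212). In the interaction of siErk3 with PA, Insig1 was at -0.28 ± 0.07 (FDR = 0.179), Srebf1 at -0.21 ± 0.10 (FDR = 0.806) and Srebf2 at -0.15 ± 0.07 (FDR = 0.763).

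For Scd1, Fads2 and Fasn the most similar genes over the 18 libraries were sought by Pearson r of log2 CPM among 11746 genes with a mean log2 CPM of at least 1. For Scd1 these were Pmvk (0.90), Hmgcs1 (0.89), Nsdhl (0.89), Manea (0.89) and Hsd17b7 (0.88). For Fads2 the values were lower, with Trim44 (0.80), Hmgcs1 (0.78), Eef2kmt (0.77), Nsdhl (0.76) and Taf1 (0.76). For Fasn they were Mfge8 (0.93), Gtf3c5 (0.93), Ctbp1 (0.93), B4galt2 (0.92) and Tmem43 (0.92). Hmgcs1 and Nsdhl were thus on the lists of both Scd1 and Fads2. Each r rests on libraries that share treatment and depth, and is a description of these 18 libraries.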

How the data were processed

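RNA-seq of 18 libraries of C2C12 myotubes was analysed from the gene counts deposited by the authors. Per the file headers and the study's methods, reads were trimmed (cutadapt, TrimGalore), aligned with STAR to GRCm39, duplicates were marked and kept (Picard), and read pairs were counted per gene with featureCounts 2.0.0 (reverse strand, primary alignments, mapping quality of at least 3) on Ensembl 105. The labels name another mouse build, and the file header was followed. A deposited table of log2 FPKM values from the authors was not used, since the counts serve the test better. Exon lengths were taken from the count table.

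Genes with at least 10 counts in total (21772 of 55414) were fitted with edgeR 4.0.16 (R 4.3.3, TMM scaling, quasi-likelihood F test, 1 coefficient per group, all 18 libraries) and p-values were adjusted over all of them (Benjamini-Hochberg, FDR). A gene was called changed at FDR below 0.05 and a fold above 1.3, the criteria of the study, and SE and 95% intervals come from the same fit. DESeq2 1.42.0, its size factors, other filters, the replicate block, the 18S rRNA share as a covariate, only the libraries compared, FDR alone and leaving out each library were tried as alternatives. Counts at an unadjusted p, and those at the FDR alone under each alternative, were chosen after seeing the data. The edgeR step was tested on simulated data. The Scd1 to Scd2 ratio was tested with exact permutations (scipy 1.17.1). The comparisons with siNtc share its libraries between siErk3, siMk5 and the interactions. Groups followed the labels, which number the replicates. No pair of libraries of a group agreed within sampling noise. Where the groups of a gene are said not to overlap, the share of all genes tested without overlap is not given.

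The 10 genes, the pathway list and the markers were chosen with earlier results of these data known. All 10 genes were named, as were of the pathway list up to 8 changed genes per comparison by smallest FDR, Srebf1, Srebf2, Insig1, Nr1h3, and for Scd1, Fads2 and Fasn the 5 most correlated genes. Elovl4, Elovl7, Mecr, Acacb, Hacd1, Hacd2, Hacd3 and Tecr were named after their values were seen.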

Additional observations from a re-analysis of the deposited data

How the results depend on the processing

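Of the 90 values (10 genes in 9 comparisons) under 26 alternatives, 2271 combinations kept both direction and call. With the FDR alone, the number of the 10 genes past the criteria with PA was 5 in siNtc, 8 in siErk3 and 7 in siMk5, and 1 for siErk3 in BSA, and of the pathway list 20 in siNtc and 23 in siErk3. Leaving out each library gave 1 to 2 in siNtc, where Elovl1 joined without siNtc BSA replicate 2 or 3 or siNtc PA replicate 1, and 0 to 2 in siErk3, where Scd2 joined without most libraries and Elovl6 was lost without siErk3 PA replicate 1. With the 18S share as a covariate, the count with PA was 2 in siErk3 (Scd2 joined), 1 in siMk5 (Fads1) and, for the pathway list in siMk5, 10 in place of 16. For siErk3 in PA the pathway list held 1 changed gene with DESeq2 (Fads6), 2 with all genes of at least 1 count (Hacd4 and Fads6) and 0 to 1 when each library was left out. The interaction of siErk3 held 1 with at least 1 count (Hacd4). Leaving out each library gave 5 to 10 genes higher in siErk3 BSA at an unadjusted p below 0.05, lowest without siNtc BSA replicate 1, and 7 to 10 genes lower in the interaction. The causes were not tested.

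The replicate numbers did not pair the libraries. After subtracting group means, libraries with the same number had a mean correlation of -0.004 over 45 pairs of groups (-0.644 to 0.565). With the number as a replicate block, 2 of the 10 genes changed with PA in siNtc, as Elovl1 passed the fold limit, and no other count moved by more than 1.5 times.

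The sign turned for 14 values, none above 0.07 in size and none called. With genes of at least 1 count, Acly in siMk5 PA was -0.0024. With the 18S covariate the interactions of siMk5 were 0.011 for Scd1 and 0.0006 for Scd2, and with filterByExpr 0.0025 for Elovl6. Leaving out each library, Fasn with PA in siNtc ran from -0.11 to 0.0118 and Scd1 with PA in siErk3 from -0.0801 to 0.0299. For siErk3 in PA, Acly ran from -0.0436 to 0.0251, Acaca from -0.0438 to 0.0296, Scd2 from -0.128 to 0.0198, Fads2 from -0.14 to 0.0275 and Elovl1 from -0.0064 to 0.0189. For siMk5, Elovl1 in BSA ran from -0.0143 to 0.0867, and in PA Acly from -0.0185 to 0.0368, Fads2 from -0.0778 to 0.0119 and Elovl6 from -0.029 to 0.0792. The interactions of siMk5 ran from -0.0704 to 0.0166 for Scd1, -0.0672 to 0.0339 for Scd2 and -0.0683 to 0.0396 for Elovl6. Depth limits the low genes of the pathway list, such as Elovl7 and Acacb.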
